A study of Caenorhabditis elegans with 16 samples.

Results

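The genes described here are 10 Caenorhabditis elegans genes of the condensin complexes and of the dosage compensation machinery: mix-1, smc-4, dpy-27, dpy-26, dpy-28, capg-1, hcp-6, sdc-2, sdc-3 and dpy-21. They were taken by name from the 46536 genes of the deposited tables, and all 10 were found. RNA was sequenced from germline tumors dissected out of 1-day-old adults in 16 libraries. The groups were a control with 0 h and animals given 2 h, 4 h or 48 h of 1 mM auxin, with 4 libraries each. Animals of all groups, controls included, were of the Bristol strain and carried lag-1(oz536oz537), glp-1(ar202), gld-1(q485), gld-2(q497) and the transgene ieSi64[gld-1p::tir1::mRuby].

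In that transgene the gld-1 promoter drives TIR1, a plant auxin receptor that directs the breakdown of degron-tagged proteins. LAG-1 is the DNA-binding factor of the Notch pathway, and the title of the series names a LAG-1 time course. What the lag-1 allele changes is not described in the labels. An effect on LAG-1 protein cannot be read from RNA. All auxin libraries carried that allele, so an effect of auxin itself cannot be told apart from one that acts through LAG-1. All animals were grown from the first larval stage for 48 h at 25 °C, which equals the longest treatment, so at 48 h the duration of auxin and the stage at which it began cannot be told apart. Nothing in the labels says which animals went into a library, so p-values refer to the spread among these libraries, which may be technical.

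Condensins are ring-shaped protein complexes that fold and compact chromosomes. Each has a pair of SMC ATPases, a kleisin that closes the ring, and HEAT-repeat subunits. C. elegans has condensin I and condensin II, which act in mitosis and meiosis, and a further complex, condensin IDC, which acts within the dosage compensation complex. MIX-1, the SMC2 protein, is in all of them. SMC-4 is its partner in condensins I and II, and DPY-27, a paralogue of SMC-4, takes that place in condensin IDC. DPY-26 (kleisin), DPY-28 (CAP-D2) and CAPG-1 (CAP-G) serve both condensin I and condensin IDC, while HCP-6 (CAP-D3) belongs to condensin II. SDC-2 and SDC-3 bring the dosage compensation complex to the X chromosome, and DPY-21 is a demethylase of histone H4 lysine 20 within it. In the soma of XX animals the complex lowers transcription from both X chromosomes. In the germline the X is kept low largely by other chromatin pathways.

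The deposited values are CPM, reads scaled to a common library total, in a table of 10 libraries (control 1 to 4, 2 h 1 and 2, 48 h 1 to 4) and a table of 6 (4 h 1 to 4, 2 h 3 and 4). Groups were compared within a table. Libraries held 17760706 to 33888940 reads. All 11 germline markers reached 1 CPM in every library. The libraries 48 h 1, control 1 and control 3 stood apart from the other 7 of the larger table. Ribosomal RNA took 44.9%, 53.3% and 51.7% of their reads, against 32.2% to 36.2% in the others. Their long genes were also low relative to their short genes, each gene taken as its log2 departure from its mean over the 10 libraries. The median departure of the longest quintile of genes minus that of the shortest quintile was -0.48, -0.78 and -0.64. In the others it was -0.02 to 0.40. This length trend is relative to the other libraries of the table and is not a difference in level between long and short genes. All 10 genes are long, with 3.83 kb (capg-1) to 9.247 kb (sdc-2) of exon, longer than 91.7% to 99.3% of the protein-coding genes tested, whose median is 1514 bases. The results at 48 h and 2 h are therefore also given without those libraries or with the length trend of each library removed.

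The 10 genes spanned a wide range of levels in the tumor. Per kb of exon in the larger table, smc-4 was highest, with a mean of 62.5 CPM per kb over the 10 libraries, above 85.3% of 7159 protein-coding genes tested. It was followed by capg-1 (39.3 CPM per kb), hcp-6 (35.3 CPM per kb), dpy-28 (29.0 CPM per kb), mix-1 (23.1 CPM per kb) and dpy-26 (12.7 CPM per kb). The recruiter gene sdc-3 (9.42 CPM per kb) and the demethylase gene dpy-21 (8.33 CPM per kb) came next. The subunit gene of condensin IDC, dpy-27, averaged 0.334 CPM per kb, above 2.12% of those genes, and sdc-2 averaged 0.0638 CPM per kb, above 0.0698% of them. The 2 lowest genes of the set are thus the SMC gene particular to condensin IDC and the gene that starts its loading on the X. The 7159 genes are those with at least 1 CPM in at least 2 libraries. Since sdc-2 did not reach that, its place near the bottom is partly set by this filter, and the place of dpy-27 is among expressed genes only. In the smaller table the order was the same except that sdc-3 (13.5 CPM per kb) stood just above dpy-26 (12.4 CPM per kb). In the larger table the ranges of all neighbours in this order overlapped between libraries, except those of dpy-21 and dpy-27. Within libraries capg-1 was above hcp-6 in 7 of 10 and sdc-3 above dpy-21 in 9 of 10, and every other neighbour pair kept its order in 10 of 10. In the smaller table the overlapping neighbours were capg-1 with hcp-6 and sdc-3 with dpy-26.

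**Figure D1:**
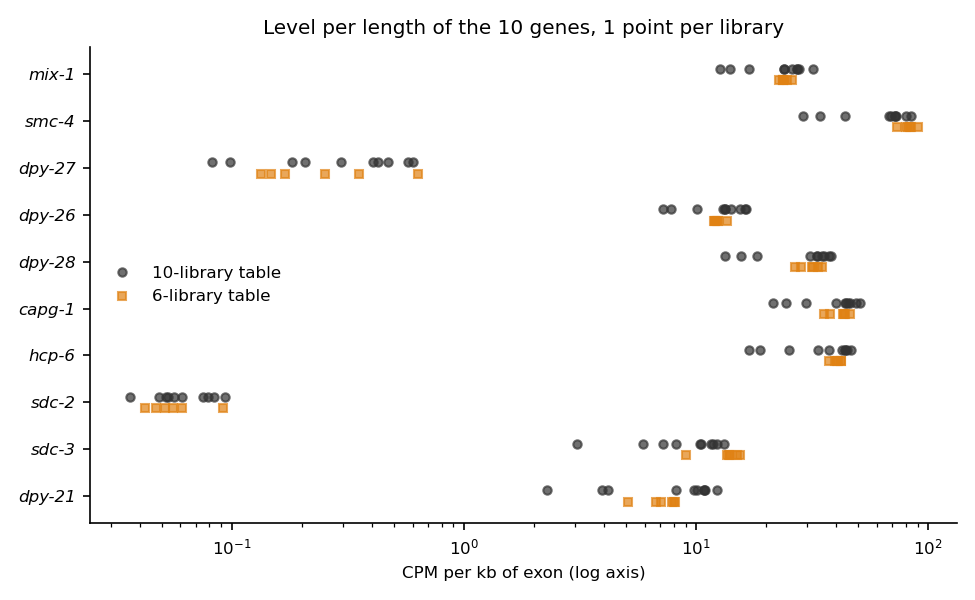
Level of each of the 10 genes in CPM per kb of exon (log axis), with 1 point per library, circles for the 10-library table and squares for the 6-library table. The genes dpy-27 and sdc-2 lie below 1 CPM per kb in every library, and the other 8 lie above it.

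The gene mix-1 (WBGene00003367, chromosome II, 10824246 to 10841424, plus strand, all positions on WBcel235) encodes the SMC subunit common to all condensins. It had 68.6, 105, 113 and 111 CPM in the 48 h libraries 1 to 4, against 51.8, 129.3, 56.8 and 97.4 CPM in controls 1 to 4. At 2 h it had 97.2 and 110 CPM. The groups overlapped, and the low values were those of 48 h 1 and of controls 1 and 3. Between 48 h and control, mix-1 differed by 0.32 ± 0.29 (SE) on the log2(CPM + 1) scale, with an adjusted p of 0.441 by limma, and by -0.09 ± 0.07 with the length trend of each library removed. Since it overlaps the genes M106.8 and VM106R.1 on the other strand, and a strand setting is given in no source used here, some of its reads may be theirs.

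The gene smc-4 (WBGene00004874, chromosome III, 4587501 to 4593124, plus strand), the SMC partner of mix-1 in condensins I and II, had 216, 343, 356 and 357 CPM at 48 h. Controls had 143, 399, 169 and 361 CPM, and 2 h libraries had 337 and 416 CPM. The same 3 libraries were low as for mix-1. Its 48 h difference from control was 0.36 ± 0.33 on the log2 scale (limma adjusted p = 0.452). With the length trend removed, the highest of the 10 libraries was 1.17 times the lowest for smc-4, against 2.90 times on the deposited scale, and the 48 h difference was -0.06 ± 0.05 (limma adjusted p = 0.394).

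**Figure D2:**
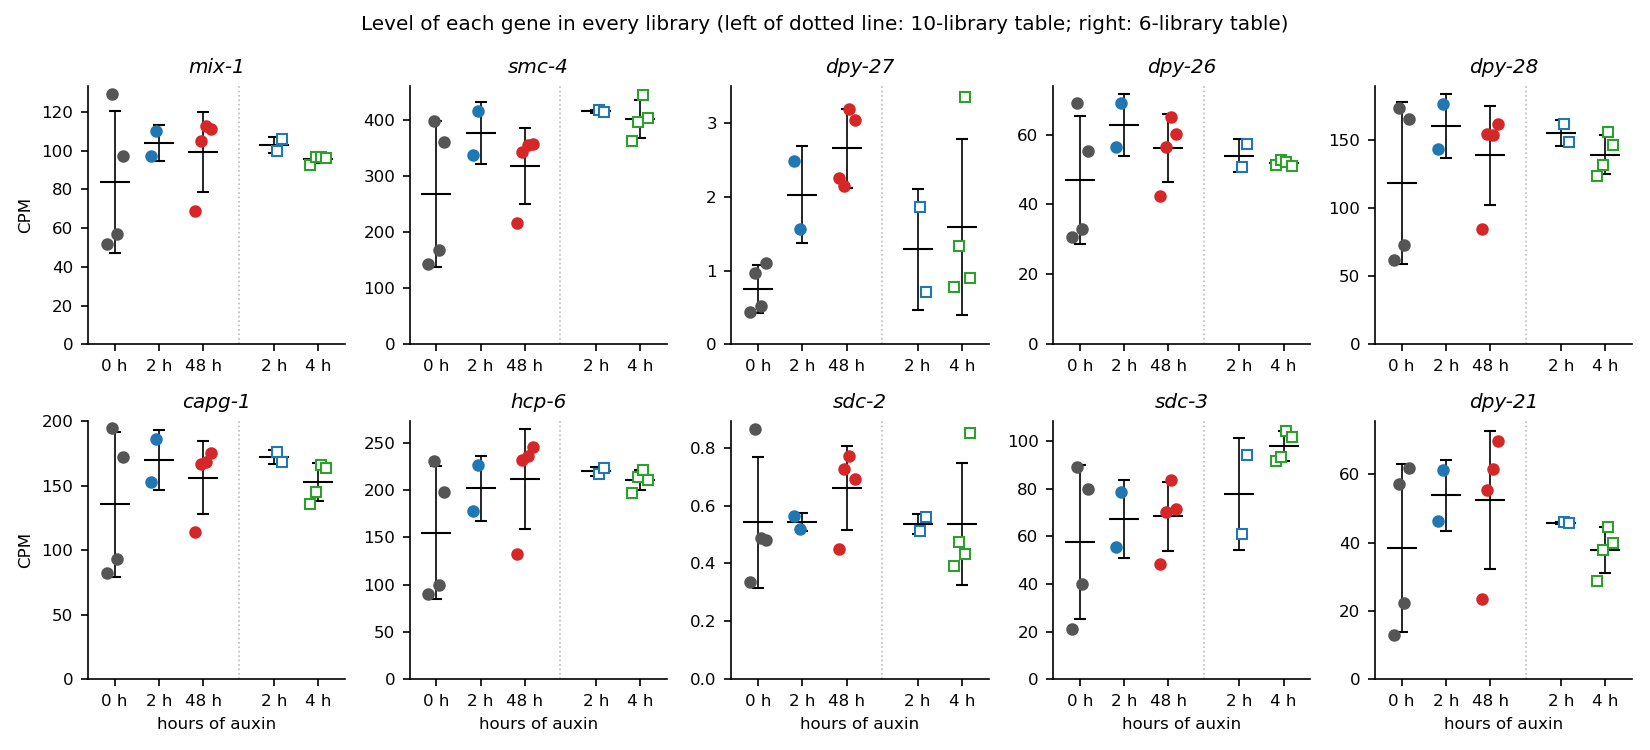
CPM of each of the 10 genes in every library (1 point each), by hours of auxin, with the mean and SD of each group as lines; 0 h is the control, and points right of the dotted line are the 6-library table. In the dpy-27 panel all 48 h points (2.15 CPM and above) lie over all control points (1.10 CPM and below), and in the other 9 panels the 48 h and control points overlap.

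The condensin IDC subunit gene dpy-27 (WBGene00001086, chromosome III, 3813018 to 3819679, minus strand) was higher after 48 h of auxin. It had 2.25, 2.15, 3.20 and 3.04 CPM at 48 h, from 40, 59, 91 and 79 reads. In controls it had 0.436, 0.962, 0.520 and 1.10 CPM, from 13, 30, 17 and 32 reads. Every 48 h library lay above every control, the lowest at 2.15 CPM and the highest control at 1.10 CPM. The means were 2.66 ± 0.538 CPM at 48 h and 0.754 ± 0.326 CPM in controls (SD, n = 4 each).

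The difference of dpy-27 was 1.07 ± 0.17 (SE) on the log2(CPM + 1) scale, with a 95% interval of 0.70 to 1.44 and an adjusted p of 0.00498 (limma, over 7684 genes). That scale understates the change of a gene near 1 CPM, and on recovered reads edgeR gave a log2 fold change of 1.59 (adjusted p = 0.00186) and DESeq2 also 1.59 (adjusted p = 3.06e-07). Across all genes tested, limma called 7.34% higher and 2.71% lower at 48 h, and in either direction edgeR called 11.6% and DESeq2 16.3%. Of the 9 genes of this set that could be tested, dpy-27 was the 1 called, and their median difference was 0.36, against 0.24 over all genes tested. It was also the 1 gene of the set whose 48 h and control values did not overlap, which held in the higher direction for 14.9% of all genes tested.

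The gene dpy-27 was also called without the libraries that stood apart. Without controls 1 and 3 the difference was 0.84 on the log2 scale (limma adjusted p = 0.0269) in a fit that called 7.07% of all genes, and without 48 h 1 as well it was 0.89 (limma adjusted p = 0.00224) with 24.0% of all genes called. With the length trend removed it was 0.87 ± 0.15 (limma adjusted p = 0.00223), in a fit that called 21.5% of all genes. With each library centred on its median log ratio it was 0.93, with 11.3% of all genes called. Within each library, the level of dpy-27 per kb was 0.973%, 0.585%, 0.841% and 0.797% of that of smc-4 at 48 h, against 0.285%, 0.226%, 0.288% and 0.285% in controls. These shares are close together in the 4 controls, including the 2 in which both genes were low. In every library of both tables dpy-27 stayed under 1% of smc-4 per kb.

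**Figure D3:**
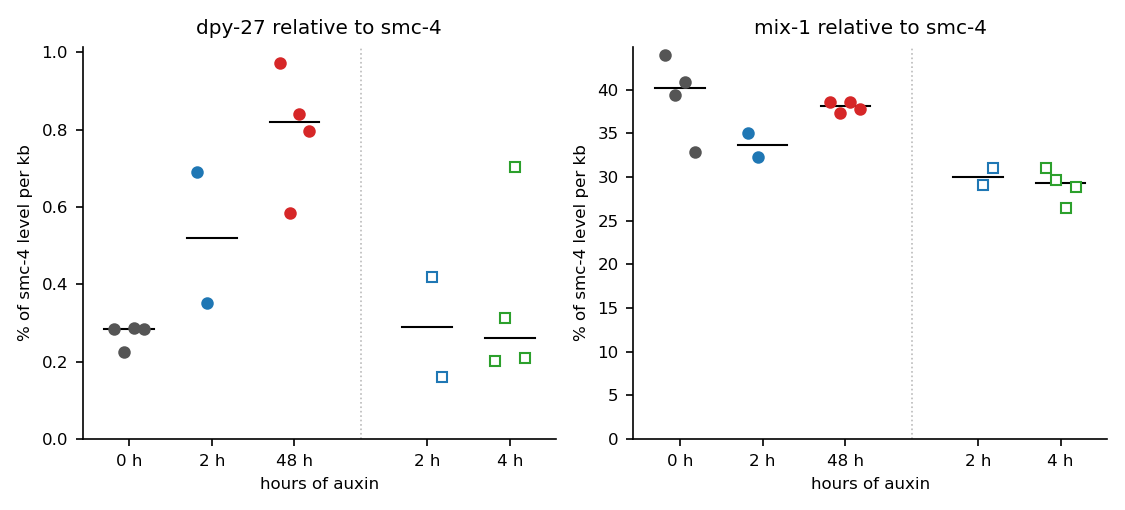
Level per kb of dpy-27 (left) and mix-1 (right) as a percent of that of smc-4 in the same library, by hours of auxin, with group medians as lines; points right of the dotted line are the 6-library table. The dpy-27 share is 0.585% to 0.973% at 48 h and 0.226% to 0.288% in controls, while the mix-1 share at 48 h (37.3% to 38.6%) lies within that of the controls (32.8% to 44.0%).

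Further lists held markers of sperm and of cells outside the germline. Of the summed levels of these 6 lists, that of the somatic gonad was the 1 that did not overlap between 48 h and control. Among those tested at 48 h, limma called 2 of 4 somatic gonad, 1 of 5 muscle and 1 of 3 cuticle and epidermis markers higher and 1 of 5 neuron markers lower. Over all genes tested it called 7.34% higher and 2.71% lower. Of the 2 intestine and 2 sperm markers tested, 0 were called by limma, edgeR or DESeq2, and 0 had an unadjusted limma p under 0.05. Without controls 1 and 3 and 48 h 1, 3 of 4 somatic gonad and 4 of 5 muscle markers were called higher, and with the length trend removed 1 of 4 and 1 of 5 were. These fits called 24.0% and 21.5% of all genes in either direction, so the counts with the length trend removed are near the share over all genes. The summed CPM of 6 somatic gonad markers was 79.1 to 88.8 at 48 h and 50.1 to 64.0 in controls, with no overlap, and 4 of the 6 reached 1 CPM in each library. The gap junction gene inx-8 led that sum with 46.8 to 55.1 CPM at 48 h and 31.8 to 37.6 CPM in controls, and lag-2 was at 0.169 CPM or less. The sum of 6 cuticle and epidermis markers was 22.97 to 35.4 CPM at 48 h and 13.6 to 24.1 CPM in controls, and that of 6 muscle markers was 44.3 to 87.9 CPM at 48 h and 36.0 to 62.7 CPM in controls. Most of the cuticle and epidermis sum came from nhr-23, with 21.9 to 32.0 CPM at 48 h and 10.1 to 21.4 CPM in controls. The markers dpy-5 and rol-6 were at 0.134 CPM or less in both groups, so the sum follows nhr-23 rather than the list. Which cells gave the nhr-23 RNA was not tested. In that list bli-1 had 0.619 to 2.29 CPM at 48 h and 0.805 to 2.09 CPM in controls, and col-19 also overlapped. The 6 neuron markers summed to 26.6 to 40.99 CPM at 48 h and 26.1 to 45.5 CPM in controls. The 7 intestine markers summed to 1.41 to 19.3 CPM at 48 h and 2.47 to 18.2 CPM in controls, and the 6 sperm markers to 4.50 to 6.86 CPM at 48 h and 4.80 to 11.2 CPM in controls. The intestinal regulator elt-2 was at 0.0770 CPM or less at 48 h and at 0.101 CPM or less in controls, the collagen gene dpy-7 at 0.0364 CPM or less at 48 h and at 0 in controls, and the sperm gene gsp-3 at 0 in both. These genes are among the lowest of their lists, and others were higher. The intestine marker vit-6 had 0.788 to 12.9 CPM at 48 h and 1.30 to 12.8 CPM in controls. The sperm marker spe-41 had 2.98 to 5.73 CPM at 48 h and 3.67 to 9.21 CPM in controls. The part of any of these cell types in the level of dpy-27 was not tested, and in dissected tissue a change in the number of cells cannot be told apart from a change in RNA per cell.

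The other subunits of condensin IDC, which it shares with condensin I, gave no call at 48 h. The kleisin gene dpy-26 (WBGene00001085, chromosome IV, 12445801 to 12451335, minus strand) had 42.6 to 65.2 CPM at 48 h and 30.6 to 69.1 CPM in controls, and differed by 0.31 ± 0.25 on the log2 scale. It overlaps C25G4.3 on the same strand, and reads in the overlap may belong to either. The HEAT-repeat gene dpy-28 (WBGene00001087, chromosome III, 10763131 to 10777076, plus strand) had 84.96 to 162 CPM at 48 h and 62.0 to 174 CPM in controls, a difference of 0.33 ± 0.35. The second HEAT-repeat gene, capg-1 (WBGene00009254, chromosome I, 7634492 to 7639785, minus strand), had 114 to 175 CPM at 48 h and 81.9 to 194 CPM in controls, a difference of 0.28 ± 0.28. The ranges of all 3 genes at 48 h lay within those of the controls.

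None of these 3 genes was called with the length trend removed either. In that fit the 48 h difference was -0.09 ± 0.08 for dpy-26, -0.09 ± 0.06 for dpy-28 and -0.12 ± 0.05 for capg-1. The smallest limma adjusted p among them was 0.0885, for capg-1, whose 95% interval was -0.22 to -0.02. The interval for dpy-27 there was 0.54 to 1.20, above the whole interval of each of its partners, although the differences between genes were not tested.

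The condensin II gene hcp-6 (WBGene00001833, chromosome I, 5165148 to 5171313, plus strand) had 133, 232, 236 and 246 CPM at 48 h, against 89.9, 231, 100 and 198 CPM in controls. At 2 h it had 178 and 226 CPM. The groups overlapped. The 48 h difference was 0.52 ± 0.32 on the log2 scale (limma adjusted p = 0.289), and 0.10 ± 0.05 with the length trend removed (limma adjusted p = 0.164). Per kb, hcp-6 was at 57.3% to 64.4% of smc-4 at 48 h and at 51.4% to 58.7% in controls. These shares overlapped only through 48 h 1 (57.3%) and control 1 (58.7%), which are among the libraries that stood apart. Relative to dpy-28, hcp-6 was at 131.9% to 137.4% per kb at 48 h and at 104.9% to 127.6% in controls, without overlap. The differences in these shares, and which gene of a pair they come from, were not tested. The gene overlaps spd-5 on the other strand.

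The recruiter gene sdc-2 (WBGene00004746, chromosome X, 11522707 to 11533450, plus strand), the only gene of the set on the X and the one that sets off assembly of the complex in XX animals, was near the limit of detection. It had 0.450, 0.727, 0.773 and 0.693 CPM at 48 h, from 8, 20, 22 and 18 reads. In controls it had 0.335, 0.866, 0.489 and 0.481 CPM, from 10, 27, 16 and 14 reads. No library reached the 1 CPM that the test asked for in at least 2 libraries, so it was not tested. In a fit with no filter the difference was 0.11 on the log2 scale (limma adjusted p = 0.631), from 8 to 27 reads per library.

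The zinc-finger gene sdc-3 (WBGene00004747, chromosome V, 15039148 to 15048207, minus strand), which acts with sdc-2, had 48.5, 70.1, 83.6 and 71.3 CPM at 48 h. Controls had 20.9, 89.1, 40.1 and 79.8 CPM, and 2 h libraries had 55.6 and 78.8 CPM. The 48 h values lay within the range of the controls, with a difference of 0.43 ± 0.40 on the log2 scale (limma adjusted p = 0.451), and 0.0019 ± 0.14 with the length trend removed. The demethylase gene dpy-21 (WBGene00001080, chromosome V, 17936282 to 17949193, minus strand) had 23.6, 55.5, 61.5 and 69.7 CPM at 48 h. Controls had 12.9, 57.1, 22.2 and 62.0 CPM, and 2 h libraries had 46.5 and 61.2 CPM. The groups overlapped, and the difference was 0.59 ± 0.49 (limma adjusted p = 0.405), and 0.18 ± 0.19 with the length trend removed.

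**Figure D4:**
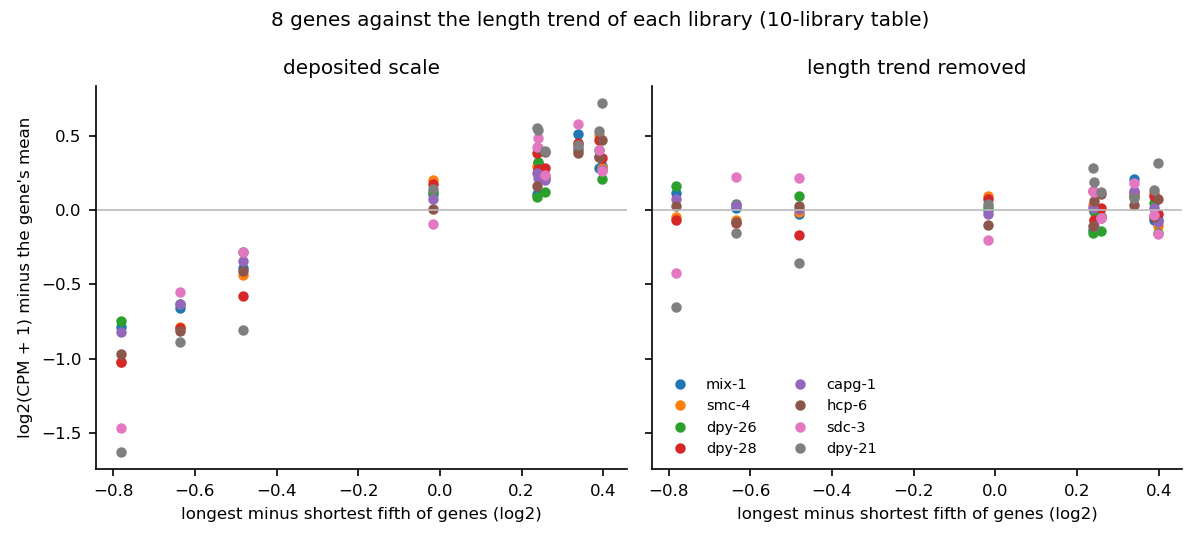
Each of the 8 genes other than dpy-27 and sdc-2 in the 10 libraries of the larger table, as log2(CPM + 1) minus the mean of the gene (y axis), against the length trend of the library (x axis). The trend is the median log2 departure from each gene's mean in the longest quintile of genes minus that in the shortest quintile. On the deposited scale (left) the 3 libraries with trends of -0.78, -0.64 and -0.48 are low for all 8 genes, and with the trend removed (right) the spread is smaller, with dpy-21 and sdc-3 spread most.

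In 48 h 1 the genes were at 37.9% (dpy-21) to 80.5% (dpy-27) of their mean in the other 48 h libraries. The median over 4852 protein-coding genes of at least 10 CPM was 84.4%, with 62.7% for the longest quintile and 110% for the shortest quintile. In controls 1 and 3 the genes were at 29.4% (dpy-21) to 61.2% (sdc-2) of their mean in controls 2 and 4, against 67.4% over the same protein-coding genes and 48.2% for the longest quintile. Most genes of the set thus lay near the longest quintile in these libraries, with dpy-21 lower in both. Once the length trend was removed, the highest of the 10 libraries was 1.16 to 1.27 times the lowest for dpy-26, dpy-28, mix-1, capg-1, smc-4 and hcp-6. The ratio was 1.58 for sdc-3, 2.00 for dpy-21, 2.39 for sdc-2 and 4.08 for dpy-27.

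Without controls 1 and 3 and 48 h 1, the 48 h differences of the 8 tested genes other than dpy-27 ran from -0.17 (sdc-3) to 0.15, and none was called. Without controls 1 and 3 alone they ran from -0.33 (dpy-28) to -0.06 (hcp-6). No direction is given for these 8 genes, since it changed with the libraries used.

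After 2 h of auxin, dpy-27 was again above all controls in the larger table, but no gene passed the test. In 2 h 1 and 2 it had 2.49 and 1.56 CPM, from 53 and 51 reads, against the control values above, of which the highest was 1.10 CPM. The other 2 h libraries, 3 and 4, are in the smaller table, had 1.87 and 0.708 CPM, and were not compared with controls. As a share of smc-4 per kb, dpy-27 was at 0.691% and 0.351% in 2 h 1 and 2, and at 0.418% and 0.160% in 2 h 3 and 4. The last value lies below those of the controls (0.226% to 0.288%), so the 2 h libraries did not all go the same way. The difference was 0.79 ± 0.21 on the log2 scale, with an unadjusted p of 0.00310 and an adjusted p of 0.520 by limma. Groups did not overlap in the higher direction for 17.8% of all genes tested, and dpy-27 was the 1 of 9 genes of the set that did so.

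Of the 9 genes, 0 were called at 2 h against control by limma, edgeR or DESeq2, which gave no adjusted p for dpy-27, and 1 had an unadjusted limma p under 0.05. The share of all genes called was 0.00% by limma, 0.00% by edgeR and 0.377% by DESeq2. The other 8 differed by 0.40 (mix-1) to 0.72 (dpy-21), with a median of 0.49 over the 9 genes and 0.24 over all genes tested. With the length trend removed those 8 lay between -0.14 (sdc-3) and 0.20 (dpy-21), and dpy-27 was at 0.54 ± 0.18 (limma adjusted p = 0.577).

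Between 48 h and 2 h in the same table, 0 of the 9 genes were called by limma, edgeR or DESeq2, and 0 had an unadjusted limma p under 0.05, where limma called 2.85%, edgeR 4.93% and DESeq2 7.47% of all genes. The differences ran from -0.26 (smc-4) to 0.28 (dpy-27), and the groups overlapped for all 9, where they did not for 27.3% of all genes tested. For dpy-27 the difference was 0.28 ± 0.21, with a 95% interval of -0.18 to 0.74, and it was 0.056 without 2 h 2 and 0.50 without 2 h 1. The 48 h and the 2 h comparisons with control share the 4 controls, and both use their low dpy-27 values.

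**Figure D5:**
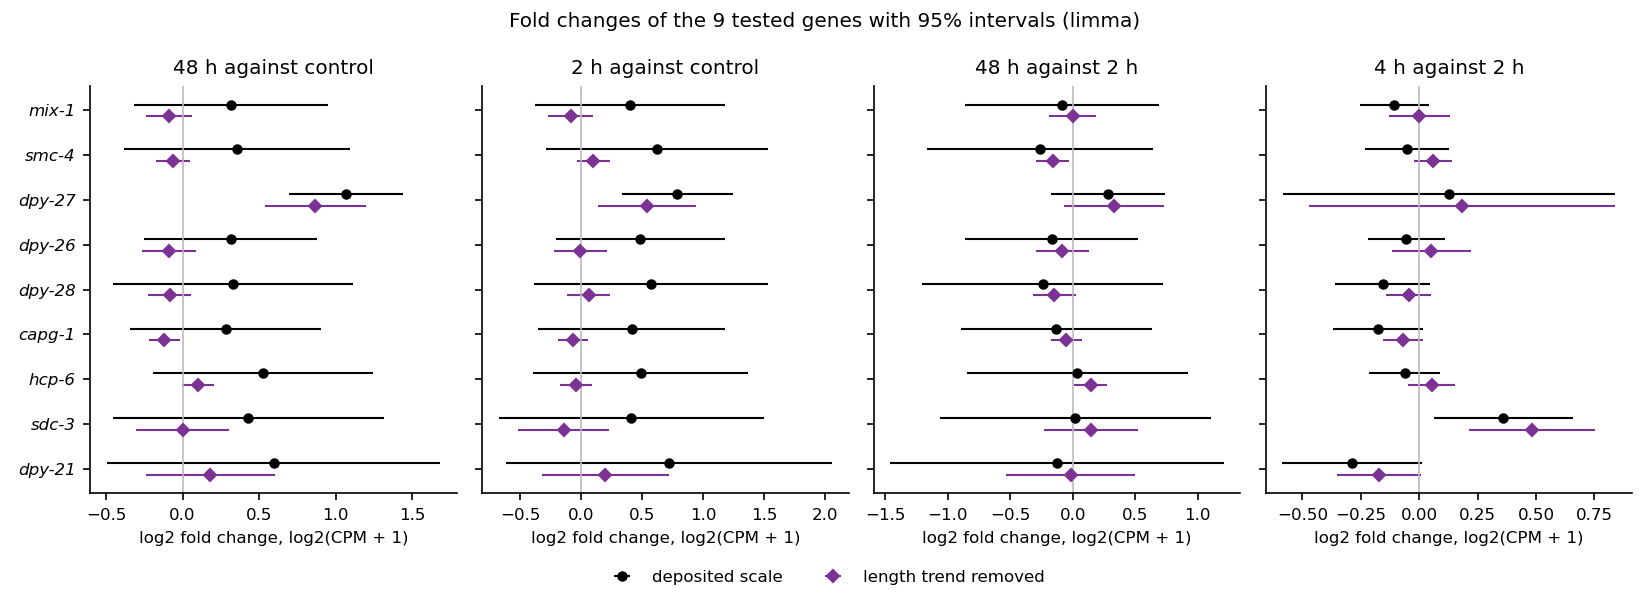
Difference in log2(CPM + 1) with its 95% interval (limma) for the 9 genes tested, in each comparison, on the deposited scale (circles) and with the length trend removed (diamonds). For dpy-27 at 48 h against control the interval runs from 0.70 to 1.44, while those of the other 8 genes on the deposited scale include 0.

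In the smaller table, 4 h was compared with 2 h, with 4 against 2 libraries. The recruiter gene sdc-3 had 91.5, 93.5, 104.4 and 102 CPM at 4 h, against 61.0 and 94.4 CPM at 2 h. One 2 h library was low, and the other lay among the 4 h values. The difference was 0.36 ± 0.14 (unadjusted p = 0.0221, limma adjusted p = 0.258), and it was 0.05 without 2 h 3. The gene dpy-21 had 28.8, 37.9, 44.7 and 39.8 CPM at 4 h, against 46.0 and 45.6 CPM at 2 h, a difference of -0.29 ± 0.14 (limma adjusted p = 0.333). The library 4 h 1 had 44.6% ribosomal RNA, against 37.7% to 41.5% in the others of this table, and the lowest length trend (-0.11). It held the lowest 4 h value of every gene of the set except dpy-26. The part of this in the 4 h differences was not tested.

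Of those tested, 0 of 9 were called at 4 h against 2 h by limma, edgeR or DESeq2, and 1 (sdc-3) had an unadjusted limma p under 0.05, where limma called 0.384%, edgeR 3.19% and DESeq2 4.63% of all genes. By DESeq2, dpy-27 had no adjusted p here. At 4 h, dpy-21, mix-1 and capg-1 lay below both 2 h libraries without overlap, which held for 24.0% of all genes tested. The gene mix-1 had 92.4 to 96.8 CPM at 4 h and 99.9 to 106 CPM at 2 h, and capg-1 had 136 to 166 CPM at 4 h and 168 to 176 CPM at 2 h. Their differences were -0.11 ± 0.07 and -0.17 ± 0.09. The median over the 9 genes was -0.06, against -0.07 over all genes tested.

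Of the 10 genes, dpy-27 had the widest span within the smaller table, with the highest of its 6 libraries at 4.74 times the lowest. It had 0.780, 1.33, 3.36 and 0.900 CPM at 4 h, from 16, 28, 62 and 18 reads, and 1.87 and 0.708 CPM at 2 h, from 51 and 24 reads. The library 4 h 3 was the highest of the 6, and the 4 h range enclosed both 2 h values. The 4 h against 2 h difference was 0.13 ± 0.32 (limma adjusted p = 0.874). It was -0.24 without 2 h 4 and -0.15 without 4 h 3.

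Other condensin genes had narrow ranges in this table. The gene smc-4 had 362 to 446 CPM at 4 h and 415 to 418 CPM at 2 h, and hcp-6 had 197 to 222 CPM at 4 h and 217 to 223 CPM at 2 h. The gene dpy-28 had 124 to 156 CPM at 4 h and 148 to 162 CPM at 2 h, and dpy-26 had 51.0 to 52.8 CPM at 4 h and 50.7 to 57.3 CPM at 2 h. Their differences were between -0.16 (dpy-28) and -0.05 (smc-4), none of them called. The untested sdc-2 had 0.390 to 0.850 CPM at 4 h and 0.513 to 0.561 CPM at 2 h.

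Other genes of the same pathways were read from 4 further lists. Of the 4 other condensin and SMC5/6 genes, 0 were called at 48 h against control by limma, edgeR or DESeq2, and 0 had an unadjusted limma p under 0.05. The condensin II kleisin gene kle-2 had the smallest p of that list, with 95.9 to 124 CPM at 48 h and 63.6 to 122 CPM in controls, a difference of 0.39 (limma adjusted p = 0.252). Of the 5 mitotic partners of condensin, 0 were called at 48 h by limma, edgeR or DESeq2, and 1 had an unadjusted limma p under 0.05. This was air-2, the Aurora B kinase gene, with a difference of 0.34 (limma adjusted p = 0.0898). In limma fits with the length trend removed and without controls 1 and 3 and 48 h 1, 1 of the 5 was called higher, the topoisomerase II gene top-2, with differences of 0.26 (limma adjusted p = 0.0115) and 0.27 (limma adjusted p = 0.0311). These fits called 21.5% and 24.0% of all genes in either direction, so 1 of 5 is near the share over all genes.

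Of the 4 other dosage compensation and H4K20 methylation genes, 0 were called at 48 h by limma, and 1 had an unadjusted p under 0.05, the methyltransferase gene set-4 with a difference of 0.35 (limma adjusted p = 0.130). By edgeR and by DESeq2, 1 of the 4 was called, lower, and it was sdc-1, where these called 11.6% and 16.3% of all genes in either direction. Of the 7 genes that count X chromosomes or set the sex switch, ceh-39 and sea-2 were tested, and 0 of these were called by limma, edgeR or DESeq2 or had an unadjusted limma p under 0.05 (sea-2, -0.36, limma adjusted p = 0.481). With the length trend removed sea-2 was called lower, at -0.70 (limma adjusted p = 0.0488), and likewise without controls 1 and 3 and 48 h 1, at -0.46 (limma adjusted p = 0.0309). In either direction these fits called 21.5% and 24.0% of all genes. The switch gene xol-1 stood at 0.0563 CPM or less in every library, and sea-1 was at 0 in all of them. The medians of the 4 lists, in the order given, were 0.29, 0.32, 0.03 and -0.28, against 0.24 over all genes tested.

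In the other comparisons limma called 0 genes of these lists on the deposited scale with all libraries. At 2 h against control, kle-2 (0.46), air-2 (0.27), set-4 (0.31) and ceh-39 (0.51) had the smallest p of their lists, each with a limma adjusted p of 0.520, and 0 genes had an unadjusted p under 0.05. At 48 h against 2 h they were smc-6 (-0.19), bir-1 (-0.12), sdc-1 (-0.63) and ceh-39 (-0.70), and 1 gene (ceh-39) had an unadjusted p under 0.05. At 4 h against 2 h they were smc-6 (-0.14), bir-1 (-0.30), dpy-30 (-0.30) and ceh-39 (-0.46), with limma adjusted p of at least 0.160. There DESeq2 called 1 gene of the lists, top-2 (0.15, adjusted p = 0.0277), and edgeR called 0. Of all genes they called 4.63% and 3.19%. With the length trend removed, limma called sdc-1 lower at 48 h against 2 h (-0.56, adjusted p = 0.0125), and at 4 h against 2 h dpy-30 lower (-0.22, adjusted p = 0.04996) and top-2 higher (0.19, adjusted p = 0.0212). Over all genes that setting called 759 of 7684 at 48 h against 2 h and 260 of 7301 at 4 h against 2 h. Without controls 1 and 3 and 48 h 1, at 48 h against 2 h, limma called sdc-1 (-0.53, adjusted p = 0.0111) and set-1 (-0.25, adjusted p = 0.0211) lower and top-2 higher (0.31, adjusted p = 0.0182). That fit called 1561 of 7612 genes.

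One further gene of the complex, sdc-1 on the X, was singled out after its values were seen. SDC-1 is a zinc-finger protein that works with SDC-2 and SDC-3. It had 1.63, 2.84, 2.46 and 2.39 CPM at 48 h, against 2.05, 5.26, 2.93 and 5.67 CPM in controls. At 2 h it had 3.71 and 4.56 CPM. The groups overlapped at the low end, and the 2 lowest controls are those that stood apart. On the deposited scale the difference was -0.52 (limma adjusted p = 0.181). With each library centred on its median log ratio the difference of sdc-1 was -0.72 (limma adjusted p = 0.0150), with the length trend removed -0.81 (limma adjusted p = 0.000227), and without controls 1 and 3 it was -0.97 (limma adjusted p = 0.0112). On recovered reads edgeR gave -0.97 (adjusted p = 0.0130). In this order, these 4 settings called 11.3%, 21.5%, 7.07% and 11.6% of all genes in either direction. The call of sdc-1 thus depends on how the libraries are scaled and on which libraries are used, while dpy-27 was called under each of these settings.

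The X chromosome is the target of the complex, and its share of the RNA was small in every library. X-linked genes took 0.307% ± 0.0145 of protein-coding CPM at 48 h and 0.326% ± 0.0185 in controls (SD, n = 4 each). The difference of -0.0192 percentage points was within the spread of the libraries (exact permutation test, 2-sided p = 0.114, where 0.0286 is the smallest p possible). It was -0.00997 percentage points without control 1, -0.0121 without 48 h 2 and -0.0118 without controls 1 and 3 and 48 h 1. At 4 h the share was 0.281% ± 0.0105 (n = 4), against 0.251% ± 0.0138 at 2 h (n = 2). The exact permutation p was 0.0667, the smallest that 4 against 2 libraries allow.

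Some genes followed the profiles of dpy-27, smc-4 and mix-1 over the 10 libraries closely. Likeness was measured as the root mean square difference of log2(CPM + 1), with each gene centred on its mean, over 5026 genes of at least 10 CPM on average. The closest to dpy-27 were prom-1 at 0.126, ostd-1 at 0.150 and slc-17.2 at 0.156, where the median of all genes compared was 0.433. The other genes of the set that were compared lay at 0.428 to 0.613 from dpy-27. In this table dpy-27 had 0.436 to 3.20 CPM, from 13 to 91 reads. At that level log2(CPM + 1) narrows its profile more than those of the genes compared with it. The closest to smc-4 were cul-2 at 0.0564, npp-21 at 0.0592 and dpy-28 at 0.0598, and the closest to mix-1 were C25H3.11 at 0.0585, ZK250.13 at 0.0630 and rfp-1 at 0.0652. The libraries differ in the length trend, which genes carry according to their length. In controls 1 and 3 the longest quintile was at 48.2% of its level in controls 2 and 4, and the shortest quintile at 98.0%. The part of gene length in these distances was not tested, so they are descriptions.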

How the data were processed

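The authors deposited 1 value per gene and library in 2 tables, a normalised read signal that they name CPM. The submitters' processing notes name the aligner STAR (2.0.4b), the counter featureCounts (1.4.5) of Subread, and the packages limma and edgeR. Not given in the sources used here are their settings, the build, the strand setting and the handling of reads with several matches. Every value was a whole number of reads (100% of values, tolerance 0.1 read), so reads were recovered for edgeR and DESeq2. Repeated lines were reduced to 1 per gene.

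Each comparison used limma 3.58.1 in R 4.3.3 (trend) on log2(CPM + 1), 2-sided, over genes with at least 1 CPM in at least 2 libraries of the table (7684 and 7301 genes), with Benjamini-Hochberg adjusted p under 0.05. On recovered reads edgeR 4.0.16 called 888 genes at 48 h against control, 0 at 2 h against control, 379 at 48 h against 2 h and 233 at 4 h against 2 h; DESeq2 1.42.0 was a further alternative. The length trend was removed by scaling each library along a lowess curve (span 0.5) of its log ratio against exon length, and centring used genes of at least 10 CPM. The code was tested on simulated data. Positions and exon lengths come from the Ensembl annotation of WBcel235 (46363 of 46536 IDs found), not stated to be the authors' build.

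All 10 genes were named in every comparison. From each further list, called genes or the one with the smallest p were named. Likeness used the 3 nearest genes for dpy-27, smc-4 and mix-1. The genes, lists and tests were chosen with earlier results of these data known. No library pair within a group agreed within sampling noise (lowest chi-square per degree of freedom 3.62). Read numbers give the counting error only, and the labels name no molecular identifiers; a count of 0 allows up to 3 reads. Sequences were not used here.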

Additional observations from a re-analysis of the deposited data

Results flagged for a closer look

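A library lay far from the other 3 of its group, by the ratio of its gap to the whole range of the group, in 5 of 33 groups of 4 libraries looked at (10 genes and the X-linked share). For a single group chance gives about 1 in 20. The groups share libraries, and all flagged genes were flagged in 48 h 1, so the 5 are not separate results and cannot be set against that rate. In 48 h 1, dpy-28 was at 84.96 CPM where the next lowest 48 h library had 154 CPM. In the same library capg-1 was at 114 CPM (next lowest 167 CPM), smc-4 at 216 CPM (next lowest 343 CPM) and hcp-6 at 133 CPM (next lowest 232 CPM). This is the 48 h library with the most ribosomal RNA and the lowest values of long genes, and these 4 genes are long; the part of either in these values was not tested. In control 1, the X-linked share of protein-coding CPM was 0.353%, against 0.315% to 0.318% in the other controls.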

How the results depend on the processing

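At 48 h against control, dpy-27 was called higher in all 19 alternatives in which it was tested, with log2 fold changes of 0.84 to 1.59. A filter of 5 CPM removes it, which leaves 0 genes of the set called there. Of the tested values of the 9 genes, 585 kept their direction and side of the threshold, 76 changed sign and 1 passed the threshold. All 17 alternative values of the X-linked share kept their direction. At 4 h against 2 h, and at 48 h without the 3 libraries, the smallest possible p is over 0.05, so those could not change side.

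The replicate numbers do not pair the libraries by the rule used: the deviations of same-numbered 48 h and control libraries correlated at 0.81, 0.62, -0.47 and 0.70, those of 2 h 1 and 2 with same-numbered libraries at 0.64 and 0.49 (48 h) and 0.60 and 0.69 (control), and those of same-numbered 4 h and 2 h libraries at 0.10 and -0.04. Not every library correlated best with its own number. With a replicate block, 1083 genes were called at 48 h against control and 644 at 4 h against 2 h, where 1 gene of the set (sdc-3, limma adjusted p = 0.000298) was called. In the smaller table only replicates 3 and 4 have a 2 h library, so the block compares 4 h with 2 h in those alone. There sdc-3 had 61.0 and 94.4 CPM at 2 h and 104.4 and 102 CPM at 4 h. With 6 libraries, little is left to estimate the spread once the block is fitted, so this call is weak. The block turned smc-4 to 0.027 at 4 h against 2 h, and hcp-6 to -0.070 and sdc-3 to -0.17 at 48 h against 2 h.

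Without controls 1 and 3, the 48 h differences from control were -0.28 (dpy-21), -0.15 (dpy-26), -0.33 (dpy-28), -0.058 (hcp-6), -0.20 (mix-1), -0.32 (sdc-3), -0.28 (smc-4) and -0.25 (capg-1). The 2 h differences from control were then -0.16 (dpy-21), -0.090 (dpy-28), -0.093 (hcp-6), -0.11 (mix-1), -0.34 (sdc-3), -0.017 (smc-4) and -0.12 (capg-1), also when 48 h 1 was left out. Without all 3 libraries, the 48 h differences from control were -0.030 (dpy-26), -0.11 (dpy-28), -0.034 (mix-1), -0.17 (sdc-3), -0.11 (smc-4) and -0.10 (capg-1), and from 2 h they were 0.21 (dpy-21), 0.081 (mix-1) and 0.011 (capg-1).

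With the length trend removed, differences from control at 48 h turned to -0.089 (dpy-26), -0.085 (dpy-28), -0.088 (mix-1), -0.064 (smc-4) and -0.12 (capg-1). At 2 h against control they turned to -0.0048 (dpy-26), -0.041 (hcp-6), -0.085 (mix-1), -0.14 (sdc-3) and -0.066 (capg-1), and at 4 h against 2 h to 0.052 (dpy-26), 0.054 (hcp-6), 0.00069 (mix-1) and 0.060 (smc-4). At 4 h against 2 h, dpy-26, hcp-6 and smc-4 turned to 0.025, 0.020 and 0.028 with median centring, to 0.017, 0.016 and 0.025 by edgeR and to 0.018, 0.016 and 0.025 by DESeq2. At 48 h against control capg-1 turned to -0.0069 by edgeR and to -0.0055 by DESeq2. Leaving out 1 library at a time gave changing signs at 48 h against 2 h for dpy-21 (-0.32 to 0.21), hcp-6 (-0.14 to 0.24), mix-1 (-0.18 to 0.081), sdc-3 (-0.23 to 0.27) and capg-1 (-0.27 to 0.011), and at 4 h against 2 h for dpy-26 (-0.14 to 0.032) and dpy-27 (-0.24 to 0.50). For these sign changes the cause was not tested.

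Counts of genes called over the whole table moved more. At 48 h against control (772) they were 383 with the filter of 5 CPM, 1655 with the length trend removed, 1255 by DESeq2, 1825 without the 3 libraries, and 342 to 1050 with 1 library left out, moving by over 1.5 times without 48 h 2, 3 or 4 or control 3. At 2 h against control (0) they were 1 with centring, 6 with the length trend removed, 29 by DESeq2 and 26 without the 3 libraries. At 48 h against 2 h (219) they were 42 with the filter of 5 CPM, 352 with centring, 759 with the length trend removed, 379 by edgeR, 574 by DESeq2, 380 without controls 1 and 3, 1561 without the 3 libraries, and 39 to 281 with 1 library left out, moving without 48 h 2, 3 or 4 or either 2 h library. At 4 h against 2 h (28) they were 9 with no filter, 162 with centring, 260 with the length trend removed, 233 by edgeR, 338 by DESeq2 and 4 to 237 with 1 library left out, moving without either 2 h library or 4 h 3 or 4. With centring 372 genes were called higher and 495 lower at 48 h against control, where the deposited scale gave 564 higher and 208 lower. Depth limits the precision of sdc-2, with 8 to 27 reads per library, and dpy-27, with 13 to 91.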
